A study of Mus musculus with 1094 samples.

Results

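Kinesins and dyneins are the motors that walk along microtubules. Kinesin rows of the expression tables were taken by symbol: Kif with a number, alone or with a letter from a to c, or Kifc with a digit. Dynein rows were those whose symbols begin with Dync1, Dync2, Dynll, Dynlr or Dynlt. Together these members were 56 of the 23078 rows. They comprised 12 mitotic motors, 15 transport kinesins, 5 chains of cytoplasmic dynein 1, 2 chains of the ciliary dynein 2, 9 dynein light chains, 6 kinesins of cilia and hedgehog signalling and 7 other kinesins. The classes follow what each motor is known for and not a measured value, but they were chosen with earlier results of these data known. Of the 56, 50 passed a filter on low values (a mean of 1 TPM or more in at least 4 of 17 libraries). The 6 that did not pass were Kif12, Kif17, Kif19a, Kif27, Kif2b and Dynlrb2.

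In a dividing progenitor, mitotic kinesins slide spindle poles apart, move chromosomes, trim microtubule ends and build the midbody that splits the daughter cells. In a neuron, transport kinesins carry vesicles, mitochondria and other cargo outwards along the axon, and cytoplasmic dynein 1 carries cargo back. In the cortex dynein also moves the nucleus of radial glia towards the apical surface of the germinal zone and pulls the nucleus of a migrating neuron.

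The study sequenced single cells from the dorsal cortex of female wild-type C57Bl/6 mice that carried a green fluorescent reporter. Cells sorted for Hes5::GFP, a reporter of a Notch target gene, were labelled neural stem cells (NSC). Cells sorted for Tbr2::GFP, a reporter of a transcription factor of intermediate progenitors, were labelled basal progenitors (BP) or newborn neurons (NBN); how these were told apart is not given in the sources used here. Cells were caught on microfluidic arrays for cells of small diameter, reverse transcribed and amplified as cDNA, and sequenced singly. A library here means all cells of 1 population at 1 stage. There were 538 NSC cells in 8 libraries (embryonic days E10.5, E11.5, E13.5, E15.5, E17.5 and E18.5, postnatal days P0 and P1), 344 BP cells in 5 libraries (E12.5, E14.5, E16.5, E18.5, P0) and 212 NBN cells in 4 libraries (E16.5, E18.5, P1, P3), 1094 cells in all. The labels give P0, P1 and P3 an age of 1, 2 and 4 days, name no animals, and a library may hold cells of 1 or several. Values are TPM, a length-scaled share of a cell's transcripts that keeps no sequencing depth, so the depth of a cell is unknown. A library's level is the mean TPM over its cells. A mean over cells cannot tell fewer cells with a transcript from less transcript per cell, so shares of cells with at least 1 TPM are given beside it.

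Some libraries stood apart from their labels. A cell was given a newborn neuron profile where the mean log2(TPM + 1) of 10 newborn neuron genes lay above that of 10 radial glia genes. This profile was held by 89.5% of NSC E15.5 cells, 67.1% of NSC E17.5 cells, 52.5% of NSC E11.5 cells and 47.1% of NSC E13.5 cells, against 2.27% at NSC E10.5. It was held by 25.0% of NBN P3 cells, where the other 3 NBN libraries reached 91.4% to 98.4%. In NBN P3, 36 of 40 cells carried markers of another cell type. The 6 microglia genes summed to 6804 TPM there, against 4.23 to 32.8 TPM in the other 16 libraries, where 3 or 4 of the 6 were at 0. The 6 genes of ependymal and multiciliated cells summed to 11257 TPM in NBN P3 with 2 of them at 0, against 1.94 to 26.8 TPM elsewhere. Only 1 NBN P3 cell was counted as of that type. The 5 endothelial genes summed to 301 TPM in NBN P3 and to 11.7 TPM or less elsewhere. The 5 meningeal genes summed to 1771 TPM in NBN P3, to 136 TPM in NBN E18.5 and 103.1 TPM in NBN E16.5, and to 18.6 TPM or less in every other library. Of these 5, 2 were called higher in NBN than in NSC and all 5 had an unadjusted p under 0.05, so this list moved with the comparison of NBN and NSC, and its part in the results was not tested. In NSC E11.5, 40 of 59 cells carried markers of another type, 37 of them erythroid. Erythroid markers were also carried by 24 of 88 cells in NSC E10.5. Interneuron markers were carried by 16 of 48 cells in NSC P0, 18 of 76 in NSC E17.5 and 15 of 59 in NSC E11.5. They were also in 12 of 66 cells of NSC E18.5, 10 of 86 of NSC E15.5 and 5 of 47 of NSC P1. Of 6 interneuron genes, 1 was called lower in BP than in NSC and 5 had an unadjusted p under 0.05. Between NBN and NSC, 4 were lower with such a p, and the part of this list was not tested either. The radial glia list was lower in BP than in NSC (8 of 10 genes called) and in NBN than in NSC (6 of 10), while no newborn neuron gene was called in either. Median genes per cell, counted at 1 TPM or more, lay between 3189 (NBN P1) and 5764 (NBN E16.5).

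Mean mitotic motor transcripts were highest in NSC. Summed over the 12 genes they reached 506 ± 189 TPM in NSC (SD, n = 8 libraries), 173 ± 134.96 TPM in BP (n = 5) and 88.3 ± 71.9 TPM in NBN (n = 4). The 15 transport kinesins summed to 702 ± 306 TPM in NSC, 1056 ± 107 TPM in BP and 830 ± 393 TPM in NBN, and the 5 dynein 1 chains to 402 ± 138, 603 ± 108 and 638 ± 334 TPM. The mitotic sums of NSC and BP overlapped, since BP E12.5 (405 TPM) lay above NSC E13.5 (344 TPM) and NSC E15.5 (157 TPM). NBN P3 (192 TPM) lay above NSC E15.5, and the other NBN libraries (28.3 to 73.0 TPM) lay below every NSC library. The mean mitotic sum was 53.6 TPM in NBN without P3 and 114.8 TPM in BP without E12.5. Medians over the cells of a library were far lower in most libraries. They were 10.6 TPM in NSC E15.5, 12.3 in NSC E18.5 and 6.53 in NSC P1, and 29.8 to 556 TPM in the other NSC libraries. In BP they were 6.43 to 24.2 TPM and in NBN 2.68 to 10.8 TPM, so the typical cell of those NSC libraries was not set apart. The transport sums of all populations overlapped.

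**Figure D1:**
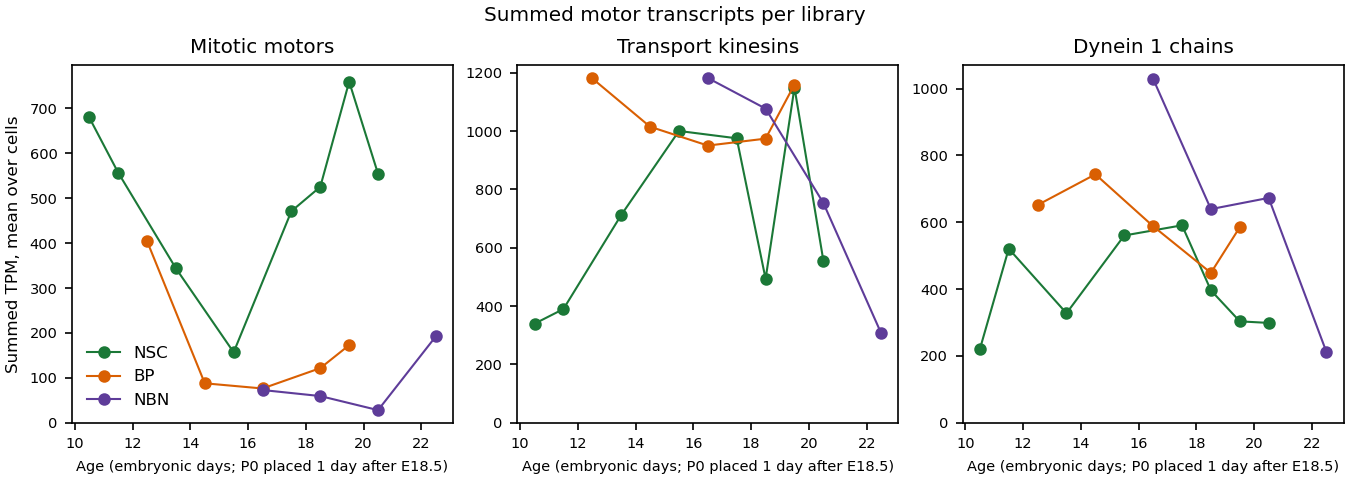
Summed TPM of the mitotic motors, transport kinesins and dynein 1 chains (vertical axes, mean over the cells of a library) against age in embryonic days, with P0 placed 1 day after E18.5. Each point is 1 library and lines join libraries of 1 population: NSC mitotic sums are lowest at E15.5 (157 TPM) and stand at 471 to 759 TPM from E17.5 on, and NBN P3 is the highest NBN library for mitotic motors and the lowest for both other classes.

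The ratio of the transport to the mitotic sum was 0.50 in NSC E10.5, 0.700 in NSC E11.5, 2.07 in NSC E13.5, 6.37 in NSC E15.5, 2.07 in NSC E17.5, 0.939 in NSC E18.5, 1.51 in NSC P0 and 1.00 in NSC P1. In BP it was 2.92 at E12.5 and 6.70 to 12.4 later. NBN libraries had 16.2 at E16.5, 18.1 at E18.5, 26.7 at P1 and 1.60 at P3. The ratio was thus highest in the NBN libraries before P3, while NSC E15.5, the NSC library with most cells of neuron profile, lay in the BP range and NBN P3 in that of NSC.

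Levels were compared with limma on log2(mean TPM + 1), with the library as the unit, age as a covariate and Benjamini-Hochberg adjustment over all 14072 genes tested; a gene with an adjusted p under 0.05 is called. Differences are on this log2 scale, which understates changes of low genes. No member was called between BP and NSC, where 0.476% of all genes were called. There 13 of 50 members had an unadjusted p under 0.05, against 1899 of all 14072 genes. No member was called between NBN and BP (0.0142% of all genes). There 4 of 50 members had an unadjusted p under 0.05, against 1283 of all genes. Between NBN and NSC, 3 members were lower, against 1.26% of all genes, and 1 was higher, against 0.391%. The lower ones were the mitotic motors Kif22, Kif23 and Kif2c, and the higher one was the dynein chain Dync1i1. Thus 3 of 12 mitotic motors were lower in NBN and none of 14 tested transport kinesins was called. These 4 calls became 1 without NBN E18.5 or without NSC P1, 2 without NBN E16.5, NBN P1 or NSC E18.5, and 11 (3 higher, 8 lower) without both NSC E15.5 and NBN P3, the libraries farthest from their labels. In that setting, chosen after seeing the data, 3.08% of all genes were higher and 3.79% lower.

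**Figure D2:**
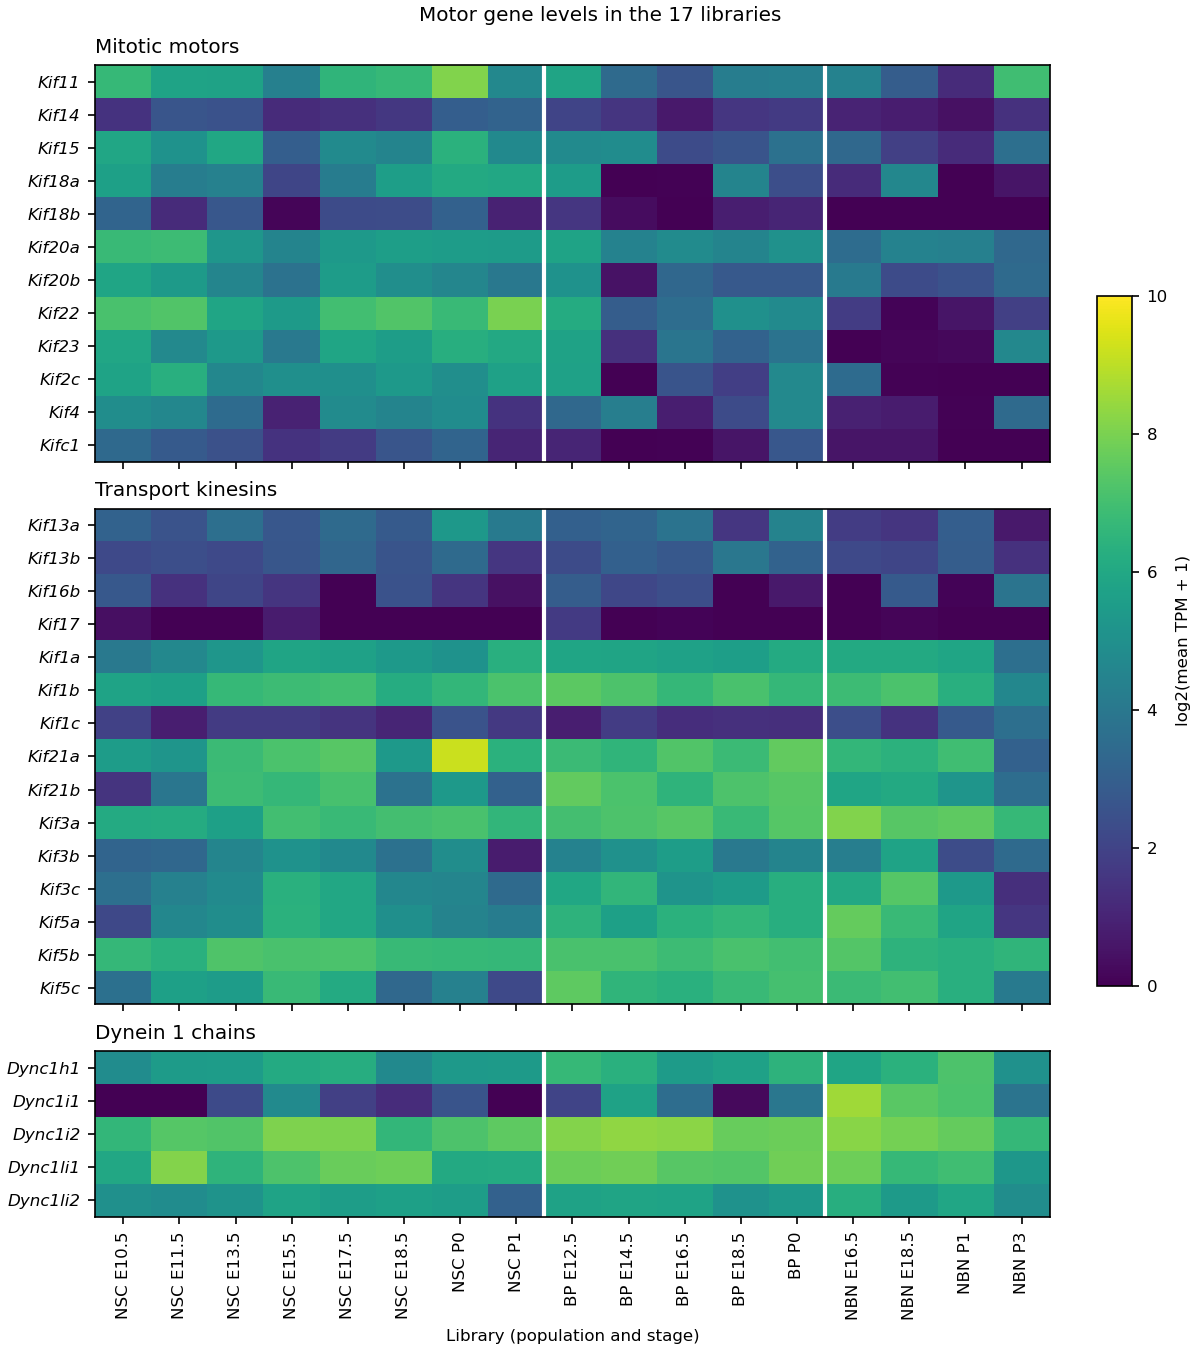
Level of each mitotic motor, transport kinesin and dynein 1 chain (rows) in each of the 17 libraries (columns, split by white lines into NSC, BP and NBN), as log2(mean TPM + 1) by colour. Mitotic rows are bright in most NSC columns and dark in NBN before P3, Dync1i1 is bright in NBN E16.5 to P1, and NSC P0 holds the brightest cell, Kif21a at 586 TPM.

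Kif22 is a chromokinesin, which binds chromosome arms and pushes them towards the spindle equator. It lies on chromosome 7 (chr7:127027729-127042471, minus strand, GRCm38). Its level in NSC ran from 42.9 TPM (E15.5) through a median of 132 TPM to 255 TPM (P1). In BP it was 69.4 TPM at E12.5, 6.80 at E14.5, 11.0 at E16.5, 31.4 at E18.5 and 26.8 at P0. In NBN it was 2.47 TPM at E16.5, 0.0562 at E18.5, 0.490 at P1 and 2.69 at P3. Every NBN library lay below every BP and NSC library, and BP E12.5 reached into the NSC range. The fitted difference between NBN and NSC was -5.89 (SE 0.655, limma adjusted p = 0.000204), and that between BP and NSC -2.37 (SE 0.550, adjusted p = 0.0719). With the mean of log2(TPM + 1) over cells in place of the log2 of the mean, the NBN difference was -1.47 with an adjusted p of 0.101. A single cell made 76.2% of the NSC P1 sum, without which that library's mean was 61.9 TPM. The transcript was found in 60 of 88 NSC E10.5 cells and in 1 to 3 cells of each NBN library. An exon of Kif22 overlaps Gm31749 on the opposite strand, and reads of the pair cannot be told apart where strand is not kept.

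Kif23 is the motor subunit of centralspindlin, the complex that gathers at the midzone before cytokinesis (chr9:61915905-61946774, minus strand). In NSC it ran from 15.48 TPM (E15.5) through a median of 51.9 to 76.2 TPM (P0). BP libraries had 52.5 TPM at E12.5, 1.59 at E14.5, 13.7 at E16.5, 7.77 at E18.5 and 13.1 at P0. NBN libraries had 0.0177 TPM at E16.5, 0.112 at E18.5, 0.154 at P1 and 24.1 at P3, so only P3 overlapped NSC. The NBN difference from NSC was -4.64 (SE 0.905, limma adjusted p = 0.0158). It missed the threshold without NBN E16.5 (adjusted p = 0.0519), without NBN E18.5 (0.0538), without NSC P1 (0.0512) and with log2 values averaged over cells (-1.15, adjusted p = 0.113). At P3 the transcript was in 3 of 40 cells.

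Kif2c, the kinetochore depolymerase that corrects wrongly attached microtubules, lies on chromosome 4 (chr4:117159639-117182639, minus strand). NSC libraries ran from 23.6 TPM (E13.5) through a median of 35.8 to 77.5 TPM (E11.5). BP libraries had 52.4 TPM at E12.5, 0.0175 at E14.5, 4.99 at E16.5, 2.63 at E18.5 and 24.9 at P0. NBN had 10.2 TPM at E16.5, 0.0337 at E18.5 and was listed at 0 at P1 and P3. All NBN libraries lay below all NSC libraries, and the E16.5 value came almost wholly from 1 of 63 cells (0.00705 TPM without it). The difference from NSC was -4.03 (SE 0.951, limma adjusted p = 0.0397). This call was lost in 13 of 27 other settings, the highest adjusted p being 0.267 with log2 values averaged over cells.

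**Figure D3:**
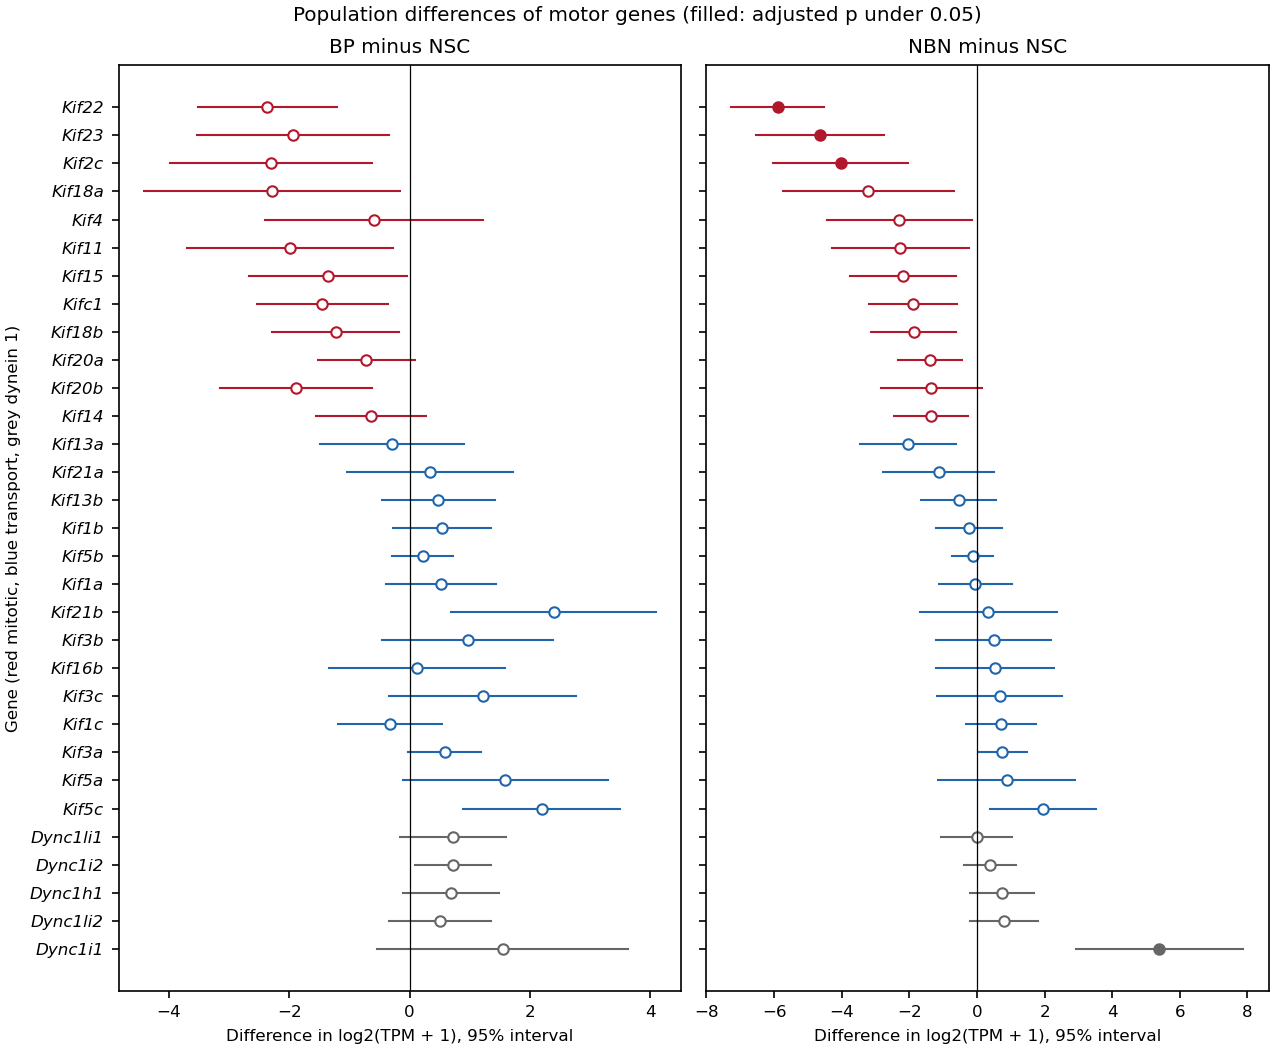
Difference in log2(mean TPM + 1) between BP and NSC (left) and NBN and NSC (right) for the tested mitotic motors (red), transport kinesins (blue) and dynein 1 chains (grey), with 95% intervals from the limma fit. Filled points passed the adjusted threshold: only Kif22, Kif23, Kif2c and Dync1i1 on the right, while all 12 mitotic points lie below 0 in both panels.

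The other 9 mitotic motors also had negative differences in both comparisons with NSC, and none was called. The median difference of all 12 was -1.67 between BP and NSC, where all tested genes had a median of 0.13, and -2.23 between NBN and NSC, where the median of all genes was -0.10. Kif11 slides the spindle poles apart. It ran from 19.4 to 275 TPM in NSC with a median of 73.8 TPM, stood at 56.0, 10.0, 5.26, 17.8 and 18.9 TPM in BP in order of stage, and at 20.9, 6.75, 1.36 and 122 TPM in NBN. The last value, NBN P3, was 12.8 TPM without its highest cell. Its NBN difference was -2.27 (SE 0.968, limma adjusted p = 0.252), and -3.03 with an adjusted p of 0.0484 without NBN P3. Kif20a carries the chromosomal passenger complex to the midzone. It had 22.0 to 113 TPM in NSC (median 44.2), 54.0, 20.4, 27.0, 21.9 and 32.4 TPM in BP, and 10.5, 20.5, 19.7 and 9.52 TPM in NBN, a difference of -1.39 between NBN and NSC (SE 0.454, adjusted p = 0.128). All NBN libraries of Kif20a lay below all NSC libraries, and BP overlapped both.

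Kif15, which slides parallel spindle microtubules, had medians of 29.7 TPM in NSC, 12.4 in BP and 6.14 in NBN. Kif18a, which damps chromosome movement at the metaphase plate, had medians of 33.7, 4.30 and 0.910 TPM. Its 23.5 TPM in NBN E18.5 was 0.756 TPM without the highest cell. The chromokinesin Kif4 had 22.9, 9.41 and 0.790 TPM, and Kif20b, which acts in abscission, had 26.3, 6.00 and 7.31 TPM. Lowest were Kif14, which also acts in cytokinesis (3.45, 2.02 and 0.861 TPM), Kif18b, which shortens astral microtubules (3.96, 0.802 and 0 TPM), and Kifc1, which focuses spindle poles (4.89, 0.4998 and 0.237 TPM). Exons of Kif18a, Kif20a and Kif4 overlap Mettl15, Cdc23 and Pdzd11 on the opposite strand, and a near copy of Kifc1, Kifc5b, may share its reads, so these levels are uncertain.

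Of 20 genes that work with these motors in mitosis, 8 were lower in NBN than in NSC and none was higher, with a median difference of -3.29. The 8 were Cenpe, a kinetochore kinesin outside the symbol rule (-4.19), Top2a, which untangles chromatids (-4.01), Bub1 of the spindle checkpoint (-4.00), Incenp of the passenger complex (-3.71), Prc1, which bundles midzone microtubules and recruits Kif4 (-3.35), Tpx2 (-3.31), the proliferation marker Mki67 (-3.14) and the kinase Aurka (-2.85). Their limma adjusted p ran from 0.00359 (Prc1) to 0.0426 (Top2a). No partner was called between BP and NSC, where the median was -1.62.

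Promoter windows of the 4 called members are shown because the 3 mitotic motors among them moved the same way and Dync1i1 the opposite way. Windows are RefSeq's (GRCm38.p6), 250 bases before to 50 after an annotated start, and 43 of 56 members had at least 1. They were searched on both strands for the cell cycle homology region (CHR), whose letters are TTTGAA, with TTCAAA on the other strand, and the variant TTCGAA, which reads the same on both, a site known to be bound by the MuvB complexes of cell cycle genes, and for the NF-Y letters CCAAT, which appear as ATTGG on the other strand. Capitals mark both motifs, which do not overlap in the printed windows. Kif22 (chr7:127042371-127042670), Kif23 (chr9:61946750-61947049) and Kif2c (chr4:117178723-117179022) are on the minus strand, and Dync1i1 (chr6:5725389-5725688) on the plus strand.
Kif22: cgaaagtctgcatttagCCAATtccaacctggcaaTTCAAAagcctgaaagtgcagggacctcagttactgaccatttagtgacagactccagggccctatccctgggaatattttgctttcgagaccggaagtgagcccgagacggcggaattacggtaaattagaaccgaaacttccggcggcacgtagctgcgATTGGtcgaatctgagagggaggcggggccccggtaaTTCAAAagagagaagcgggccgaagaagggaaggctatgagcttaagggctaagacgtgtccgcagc
Kif23: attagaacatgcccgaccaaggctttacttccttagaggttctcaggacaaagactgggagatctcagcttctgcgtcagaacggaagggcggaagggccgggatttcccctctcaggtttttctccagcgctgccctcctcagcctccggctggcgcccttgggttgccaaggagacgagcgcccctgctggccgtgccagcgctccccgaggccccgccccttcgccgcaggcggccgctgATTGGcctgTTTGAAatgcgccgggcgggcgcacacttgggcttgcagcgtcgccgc
Kif2c: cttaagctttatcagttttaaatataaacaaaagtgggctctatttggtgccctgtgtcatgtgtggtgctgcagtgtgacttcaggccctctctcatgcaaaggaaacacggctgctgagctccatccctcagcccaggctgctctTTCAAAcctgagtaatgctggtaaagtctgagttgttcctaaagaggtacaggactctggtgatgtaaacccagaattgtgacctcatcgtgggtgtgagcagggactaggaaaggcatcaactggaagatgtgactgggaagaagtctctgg
Dync1i1: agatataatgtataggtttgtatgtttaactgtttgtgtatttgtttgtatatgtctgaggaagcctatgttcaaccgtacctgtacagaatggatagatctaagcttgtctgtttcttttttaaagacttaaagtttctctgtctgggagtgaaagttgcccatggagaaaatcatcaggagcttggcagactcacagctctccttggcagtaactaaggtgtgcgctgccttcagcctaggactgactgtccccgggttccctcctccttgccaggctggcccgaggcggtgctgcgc
The Kif22 window held CHR letters 17 and 215 bases before the start, and CCAAT letters. In Kif23 the CHR letters began 2 bases after the start, close behind CCAAT letters. The Kif2c window, whose RefSeq start lies 3867 bases inside the GENCODE gene, held CHR letters 103 bases before the start and no CCAAT. Dync1i1 held neither.

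CHR letters were in the windows of 10 of 11 mitotic motors (90.9%), all but Kif18a, against 19.2% of all 32851 windows. They were in 1 of 13 windows of transport kinesins (7.69%, Kif1a) and in 0 of 5 windows of dynein 1 chains. The Kif1a match was in the window of a RefSeq start 19471 bases inside the GENCODE gene, and its other window held none. The mitotic motor Kif20a had no window. CHR and CCAAT letters stood together in 7 of the 11 mitotic windows (63.6%), against 7.52% of all windows. In 8 mitotic motors the CHR letters lay within 60 bases of the start. The match nearest the start is shown in 30 bases for the 7 other mitotic motors that held it, to compare where it sits. The stretches are Kif11 (chr19:37376351-37376380, plus strand), Kif15 (chr9:122951050-122951079, plus strand), Kif20b (chr19:34922353-34922382, plus strand), Kif4 (chrX:100626072-100626101, plus strand), Kif18b (chr11:102925104-102925133, minus strand), Kifc1 (chr17:33890615-33890644, minus strand), Kif14 (chr1:136467608-136467637, plus strand).
Kif11: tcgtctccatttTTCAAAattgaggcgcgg
Kif15: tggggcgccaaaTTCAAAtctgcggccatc
Kif20b: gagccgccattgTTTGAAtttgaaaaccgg
Kif4: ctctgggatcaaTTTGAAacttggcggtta
Kif18b: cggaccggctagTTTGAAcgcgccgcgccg
Kifc1: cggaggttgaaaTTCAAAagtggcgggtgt
Kif14: ggaggtcctgtcTTTGAAgtctgcagtgtc
The capitals, the CHR letters nearest the start, began 19 bases before it in Kif11 and Kif15. They began 1, 3, 7 and 19 bases after it in Kifc1, Kif18b, Kif20b and Kif4. The Kif20b stretch also holds a match 13 bases after the start, left in small letters. In Kif14 the capitals lay 228 bases before a RefSeq start that is 1505 bases inside the GENCODE gene. A match describes letters only, and binding was not measured.

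Cells of the same library were next split by whether they were dividing, meaning that at least 10 of the 20 mitotic partner genes were at 1 TPM or more. The split used no member. By this rule 223 of 1094 cells were dividing: 84.1% of NSC E10.5 cells, 10.5% to 45.8% in the other NSC libraries, 18.1% in BP E12.5, 2.25% to 6.58% in later BP libraries and 0% to 7.94% in NBN. In all, 42 cells held 9 or 10 of the 20 genes and lay at the limit. In 11 libraries with at least 5 cells on each side, 212 dividing and 537 other cells were set against each other. Shares pool the cells of these libraries, and NSC E10.5 gave 74 of the dividing but 14 of the other cells. The part of this mix of libraries was not tested. Shares are given as a description with exact 95% binomial intervals, which cover counting error only, and no test.

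All 12 mitotic motors were in a larger share of dividing cells, but they differed in how far the other cells lacked them. Kif2c was in 53.3% (46.3% to 60.2%) of dividing and 2.42% (1.30% to 4.10%) of other cells, and Kif23 in 62.3% against 5.21%. Kif22 was in 69.8% (63.1% to 75.9%) against 7.45% (5.37% to 10.0%), Kif20b in 62.3% against 9.50%, and Kif4 in 58.5% against 11.2%. Kif18a, Kifc1 and Kif18b were in 44.3%, 25.5% and 22.2% of dividing cells and in 5.96%, 5.96% and 1.30% of others. A second set was in at least 19.0% of the other cells. Kif11 was in 87.7% (82.5% to 91.8%) of dividing and 67.6% (63.5% to 71.5%) of other cells, Kif15 in 91.5% against 63.5%, Kif20a in 80.7% against 33.5%, and Kif14 in 33.5% against 19.0%. Their levels still differed: Kif11 averaged 195 TPM in dividing and 50.2 TPM in other cells over the 11 libraries, and Kif15 78.2 against 23.6 TPM. The direction was the same in all 11 libraries for 9 of the 12 motors. The exceptions, each with 10 libraries, were Kif14, Kif18b and Kif23.

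Transport kinesins parted on the same split. Kif5a, a kinesin-1 heavy chain of neurons, was in 16.0% (11.4% to 21.7%) of dividing and 46.9% (42.6% to 51.2%) of other cells, Kif21b in 35.4% against 64.4%, and Kif5c in 43.4% against 60.1%. Each was lower in the dividing cells of 8 of 11 libraries. The median library share was 20.0% against 30.6% for Kif5a, 41.2% against 66.7% for Kif21b and 39.1% against 62.2% for Kif5c. The broadly made kinesin-1 chain Kif5b was in 98.6% of dividing and 94.2% of other cells. Kif3a (77.4% and 70.8%), Kif21a (78.8% and 74.5%) and Kif1b (77.4% and 82.5%) were also common on both sides. Among dynein 1 chains, Dync1i2 was in 88.7% of dividing and 86.4% of other cells and Dync1i1 in 3.30% against 13.0%. By library, the Dync1i1 share was higher in dividing cells in 4 libraries and lower in 4, with medians of 0% and 3.39%. Dividing cells had more genes at 1 TPM or more in 10 of the 11 libraries, for example a median of 5774 against 3878 in NSC E10.5, and in BP E12.5 the order was the opposite, 4455 against 5071. The part of gene number in these shares was not tested.

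**Figure D4:**
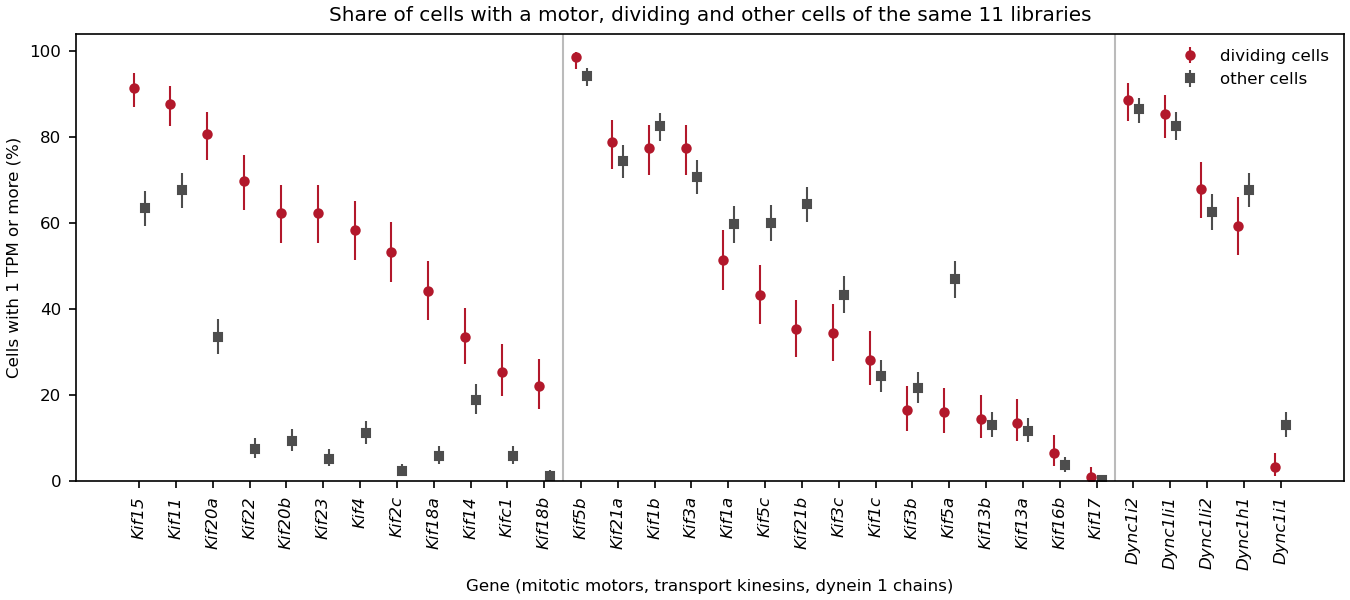
Share of cells with at least 1 TPM of each motor (vertical axis, %) among 212 dividing (circles) and 537 other cells (squares) pooled over the same 11 libraries, with exact 95% binomial intervals. Circles lie above squares for all 12 mitotic motors, least apart for Kif14 and Kifc1, and below them for Kif5a (16.0% against 46.9%), Kif21b and Kif5c.

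Over the cells of a library, the number of mitotic motors at 1 TPM or more was set against the number of mitotic partners at that level. Separately, the summed TPM of mitotic motors was set against that of transport kinesins. Spearman's rho of motors with partners over the 88 cells of NSC E10.5 was 0.69, and it ran from 0.43 to 0.82 over the 8 NSC libraries, 0.02 to 0.48 over BP and 0.16 to 0.51 over NBN libraries. For the summed TPM of mitotic motors and transport kinesins, rho lay between -0.22 and 0.08 in NSC. It lay between -0.24 and 0.26 in BP, and between -0.11 and 0.08 in NBN. Counts of genes and summed TPM are unlike measures, and the part of gene number in the counts was not tested. Cells of a library share the capture, and TPM of a cell sum to a fixed total, so these are descriptions.

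No transport kinesin was called between populations. Of 14 tested, 12 had a positive difference between BP and NSC (median 0.53) and 8 between NBN and NSC (median 0.41). Of these, 2 had an unadjusted p under 0.05 between BP and NSC. Kif3a, the shared subunit of kinesin-2, which carries vesicles and also serves cilia, had the highest mean. It ran from 50.5 to 140 TPM in NSC (median 101), 129, 147, 169, 108 and 162 TPM in BP, and 278, 168, 183 and 104 TPM in NBN. The NBN difference was 0.75 (SE 0.346, limma adjusted p = 0.302), and 3 of the 4 NBN libraries lay above every NSC library. Kif21a, a kinesin-4 that acts on growing microtubule ends, ran from 35.8 to 586 TPM in NSC (median 96.4), of which the highest library, P0, held 205.6 TPM without its highest cell. It had 111, 91.4, 156, 113 and 194 TPM in BP and 98.7, 85.0, 121 and 7.64 TPM in NBN, within the NSC range but for NBN P3, which lay below every NSC library. Kif5b had 79.8 to 152 TPM in NSC (median 104.6), 140, 139, 114, 139 and 126 TPM in BP and 158, 86.3, 79.3 and 93.2 TPM in NBN, with a difference of -0.13 between NBN and NSC (95% interval -0.72 to 0.47).

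The kinesin-1 chains Kif5c and Kif5a and the kinesin-4 Kif21b, which regulates microtubule growth in neurons, had the largest positive differences of the class between BP and NSC. These were 2.39 for Kif21b (SE 0.809, limma adjusted p = 0.215), 2.19 for Kif5c (SE 0.623, adjusted p = 0.151) and 1.58 for Kif5a (SE 0.811, adjusted p = 0.407). Kif21b had 195, 144, 90.1, 144.9 and 170 TPM in BP, 57.5, 66.4, 35.9 and 10.9 TPM in NBN, and 1.81 to 134.7 TPM in NSC. Kif5c had 180, 91.1, 80.9, 108 and 132 TPM in BP against 3.59 to 107 TPM in NSC, the highest being E15.5. With stage as a factor in place of a linear age term, Kif5c was called higher in BP than in NSC (3.14, adjusted p = 0.0475) and in NBN than in NSC (3.71, adjusted p = 0.0185). With the NSC cells of newborn neuron profile left out, Kif21b (3.67, adjusted p = 0.00702), Kif5c (2.88, 0.00389) and Dync1i2 (1.20, 0.0329) were higher in BP and Kif22 (-2.74, 0.00495) and Kif20b (-2.36, 0.0307) lower. In that setting 5 members were higher, against 4.2% of all genes, and 2 were lower, against 2.53%.

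Within NSC Kif5a, Kif21b and Kif5c followed the neuron profile. In 5 NSC libraries with at least 5 cells on each side (E11.5, E13.5, E15.5, E17.5 and E18.5), 206 cells of neuron profile and 149 others were compared as a description. Shares pool the cells of these libraries. The profile is defined by marker genes that include no motor. Kif5a was in 53.9% (46.8% to 60.8%) against 10.1% (5.74% to 16.1%), Kif21b in 80.1% against 28.2%, and Kif5c in 69.9% against 36.2%, each larger in all 5 libraries. At NSC E11.5 Kif5a was in 12 of 31 cells of neuron profile and 0 of 28 others. Kif3c (51.5% against 26.2%), Kif1a, which carries synaptic vesicle precursors (63.6% against 40.3%), and Kif1b (90.3% against 67.8%) were larger in 4 of 5. The dynein heavy chain Dync1h1 was in 73.8% against 51.0%, larger in all 5. Kif22 (15.53% against 35.6%) and Kif4 (15.0% against 34.9%) were smaller in all 5. The share of dividing cells was lower among cells of neuron profile in each of these libraries, for example 7.84% against 52.0% at E17.5. Median genes per cell were 4848 against 4944 at E17.5. The transport sum was larger in the cells of neuron profile in 4 of the 5 libraries, for example 1120 against 680 TPM at E17.5, and smaller at E18.5 (475 against 499 TPM).

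Small families showed which gene held the transcripts. Kif5b made 65.9 ± 15.7% of the summed kinesin-1 heavy chain TPM in NSC (SD, n = 8), 40.6 ± 5.66% in BP (n = 5) and 45.4 ± 26.0% in NBN (n = 4). Its share was highest in NSC E10.5 (86.7%) and lowest in NBN E18.5 (27.0%), and NBN P3 (83.8%) lay with the stem cells. Kif5a made 3.06% at NSC E10.5, 42.5% at NBN E16.5 and 1.77% at NBN P3. Of the intermediate chains, which tie dynein to dynactin, Dync1i1 made 2.18 ± 3.08% in NSC, 5.01 ± 5.65% in BP and 38.0 ± 18.7% in NBN. The NBN values were 56.5%, 41.6%, 41.9% and 11.9% in order of stage, and the highest value elsewhere was 14.2% in BP E14.5. Kif21b made 25.9 ± 18.4% of the Kif21 sum in NSC and 52.9 ± 11.2% in BP. These shares were not tested.

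**Figure D5:**
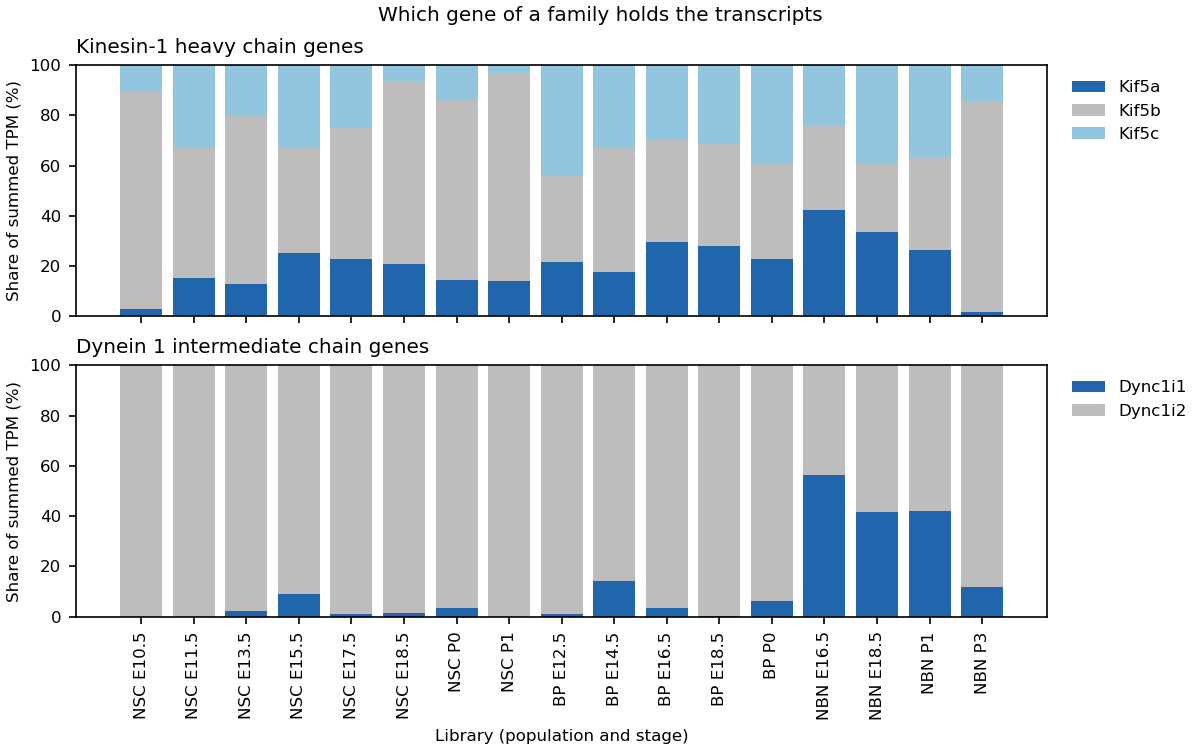
Share of the summed TPM (vertical axis, %) held by each kinesin-1 heavy chain gene (top) and each dynein 1 intermediate chain gene (bottom) in the 17 libraries. Dync1i1 holds 41.6% to 56.5% in the NBN libraries before P3 and at most 14.2% in any NSC or BP library, and Kif5b holds most in NSC E10.5, NSC P1 and NBN P3.

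Dync1i1, the intermediate chain found mostly in neurons, lies on chromosome 6 (chr6:5725639-6028039, plus strand, GRCm38). It was listed at 0 in NSC E10.5, E11.5 and P1 and reached 26.8 TPM in NSC E15.5, with a median of 2.08 TPM. In BP it stood at 3.12, 53.9, 10.8, 0.209 and 14.4 TPM, and in NBN at 383 (E16.5), 171 (E18.5), 144 (P1) and 13.49 TPM (P3). The NBN libraries before P3 lay above all others, and P3 lay within the NSC and BP ranges. The difference between NBN and NSC was 5.40 (SE 1.18, limma adjusted p = 0.0272). The call was lost in 8 of 27 other settings, among them leaving out NBN E16.5 (4.64, adjusted p = 0.0903), NBN E18.5, NBN P1, NSC E18.5 or NSC P1 and leaving out cells with markers of another type (5.30, adjusted p = 0.0816). The highest cell made 60.3% of the NBN P1 sum (58.8 TPM without it). The transcript was in 45 of 63 cells at NBN E16.5 (71.4%), 31 of 70 at E18.5 (44.3%), 13 of 39 at P1 (33.3%) and 3 of 40 at P3 (7.5%). In NSC it was in 19 of 86 cells at E15.5 (22.1%) and in at most 3 cells of any other library.

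None of the other dynein 1 chains was called. All 5 chains had a positive difference between BP and NSC (median 0.72). Dync1i2, the broadly made intermediate chain, had 96.5 to 265 TPM in NSC (median 160), 279, 327, 310, 204 and 215 TPM in BP and 295, 241, 200 and 99.9 TPM in NBN. Its BP difference was 0.72 (SE 0.303, limma adjusted p = 0.308). Dync1li1, a light intermediate chain that binds cargo adaptors, had 63.4 to 284 TPM in NSC (median 118), 215, 226, 169, 159 and 229 TPM in BP and 219, 102, 121 and 37.7 TPM in NBN. Dync1h1, the heavy chain with the motor domain, had 25.5 to 74.0 TPM in NSC (median 43.1), 103, 81.4, 43.6, 51.9 and 87.0 TPM in BP and 57.7, 83.7, 148 and 32.1 TPM in NBN. Dync1li2, the second light intermediate chain, had 7.55 to 54.6 TPM in NSC (median 40.5), 52.6, 55.8, 55.2, 33.3 and 39.9 TPM in BP and 75.4, 42.1, 59.9 and 28.8 TPM in NBN. In each of these 4 chains the groups overlapped, and NBN P3 was the lowest NBN library. Of 20 dynactin and dynein adaptor genes, 1 was called in any comparison: Nde1, which binds dynein in mitosis and nuclear movement, was lower in NBN than in NSC (-3.88, SE 0.883, adjusted p = 0.0339).

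Dynein light chains, small subunits that also serve other complexes, were the most abundant members and none was called. Dynll1 had 496 to 1048 TPM in NSC (median 735), 838, 847, 604, 357 and 476 TPM in BP and 632, 699, 683 and 450 TPM in NBN. It made at least 94.5% of the Dynll sum in every library, the rest being Dynll2. Dynlrb1 had 373 to 700.1 TPM in NSC (median 518), 739, 706, 588, 476 and 692 TPM in BP and 569, 742, 253 and 679.7 TPM in NBN. Dynlt1b had 202 to 431 TPM in NSC (median 289), 447, 275, 390.5, 349 and 314 TPM in BP and 266, 269, 323 and 257 TPM in NBN. The 3 populations overlapped for each of these light chains. Dynlt1a, Dynlt1b, Dynlt1c and Dynlt1f are near-identical copies on chromosome 17 whose split is uncertain. Dynlt3 ran from 0.00448 TPM in BP E18.5 to 72.7 TPM in NSC P0, and Dynlrb2 came from 1 cell each in NSC P0 and BP E12.5, where it was highest.

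Ciliary motors were low. The dynein 2 chains Dync2h1 and Dync2li1, which return cargo within cilia, had medians of 23.3 and 28.7 TPM in NSC. Dync2h1 ran from 12.0 to 37.6 TPM in NSC and from 5.00 to 20.9 TPM in BP (median 12.7), and stood at 12.2, 18.6, 9.28 and 5.28 TPM in NBN. Dync2li1 ran from 11.46 to 70.5 TPM in NSC and stood at 22.5, 39.7, 10.8, 20.2 and 20.8 TPM in BP and at 14.2, 29.3, 18.3 and 20.3 TPM in NBN. Many of these values rested on 1 cell. Without its highest cell Dync2li1 had 1.16 TPM in NSC E17.5, 4.79 in NSC P0, 0.675 in NBN P1 and 1.00 in NBN P3. The 3 populations overlapped for both chains. Their differences between NBN and NSC were -0.79 (SE 0.495) and -0.65 (SE 0.530), with limma adjusted p of 0.473 and 0.620. Kif24, which restrains cilium assembly, had 6.13 to 24.9 TPM in NSC (median 9.97), 11.51, 6.81, 3.32, 19.8 and 12.3 TPM in BP and 8.42, 3.97, 22.4 and 4.55 TPM in NBN. Its NBN P1 value was 2.32 TPM without the highest cell. Kif9, of motile cilia, had 0 to 5.30 TPM in NSC (median 0.310), 1.85, 1.51, 0.0285, 2.79 and 1.98 TPM in BP and 0.147, 22.7, 0 and 22.2 TPM in NBN. Its 2 high values came from 1 of 70 cells at NBN E18.5 and from 4 of 40 cells at NBN P3. Kif7, a hedgehog pathway kinesin, had 0.236 to 4.50 TPM in NSC (median 1.43), 0.0263, 0.434, 2.05, 4.41 and 0.103 TPM in BP and 1.85, 0, 0.732 and 0.657 TPM in NBN. Kif6 reached 6.84 TPM, Kif27 5.25 TPM and Kif19a 2.44 TPM. Of the other kinesins, Kif2a, a depolymerase that prunes axon branches, had 57.4 to 139.97 TPM in NSC (median 104.98), 142, 84.6, 86.8, 85.6 and 202 TPM in BP and 213, 98.1, 88.6 and 81.4 TPM in NBN. Kif26b had 0.105 to 24.8 TPM in NSC (median 7.00), 2.78, 0.244, 2.11, 2.20 and 12.8 TPM in BP and 13.8, 9.41, 12.54 and 0.00604 TPM in NBN. Its NBN P1 value was 0.0925 TPM without the highest cell. Kifc2 had 0 to 19.0 TPM in NSC (median 0.281), 0.831, 1.71, 2.17, 0.675 and 8.77 TPM in BP and 6.92, 5.79, 0.0149 and 3.44 TPM in NBN. The populations overlapped for all 3, and Kif26a stayed at or under 6.99 TPM. Kifc3 was at most 0.741 TPM in NSC and 1.33 to 4.68 TPM in NBN, all NBN libraries lying above all NSC libraries (1.45, SE 0.42997, adjusted p = 0.0859). Kif12 and Kif2b were listed at 0 in all 17 libraries. The kinesin-2 subunit Kif3b had 0.673 to 33.1 TPM in NSC (median 17.6), 20.4, 32.1, 46.9, 15.6 and 21.5 TPM in BP and 18.2, 54.5, 4.04 and 10.0 TPM in NBN, with overlap throughout. The remaining transport kinesins Kif13a, Kif13b, Kif16b, Kif1c and Kif17 reached 39.3, 14.4, 13.4, 11.51 and 2.23 TPM at most.

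Age trends were tested as slopes of log2(mean TPM + 1) per day within each population, and no member was called in any. For NSC slopes 1.36% of all genes were called, for BP 0.0% and for NBN 0.448%, and for the difference of BP and NSC slopes 0.00711%. In NSC, 3 of 50 members had an unadjusted p under 0.05, against 1806 of all 14072 genes. The 3 were Dynll1 (-0.097 per day, SE 0.0312, limma adjusted p = 0.158), Kif1a (0.15, SE 0.0593, adjusted p = 0.290) and Kif3a (0.0999, SE 0.0430, adjusted p = 0.330). In BP 1 member, Dynll1, had such a p, and in the difference of slopes none, against 512 and 556 of all genes. In NBN 9 of 50 members had such a p, against 2769 of all 14072 genes, a similar share. Of the 9, 8 were negative, led by Kif5a (-0.96 per day, SE 0.226, limma adjusted p = 0.0612). Kif5a stood at 200, 108, 56.6 and 1.97 TPM in NBN E16.5, E18.5, P1 and P3. The last of these libraries had markers of another cell type in 36 of its 40 cells, and their part in the slopes was not tested. Without cells with markers of another type, 8 members were called in NBN, all lower with age and Kif5a not among them; examples were Kif1b (-0.50, adjusted p = 0.0196), Kif3a (-0.59, 0.0140) and Dync1i2 (-0.67, 0.0131). In that setting 21.2% of all genes were called lower with age, and NBN P3 had lost 36 of its 40 cells. With NBN P3 left out as a whole, 0 members were called for NBN slopes. Of 13 tested kinesin light chain and adaptor genes, Sybu, a linker of syntaxin cargo to kinesin-1, rose with age in NSC (0.65 per day, SE 0.151, adjusted p = 0.0434).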

How the data were processed

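The members and lists were chosen with earlier results of these data known. TPM were deposited by the authors per gene and cell; kallisto 0.43.0 and the builds GRCm38.p2 and mm10 are named in the submitters' processing notes, with no role given. The authors deposited only whole numbers in 7 near-empty cells, a score with no stated unit that was read as TPM. Depth is lost in TPM, so precision rests on 39 to 89 cells per library. Cells are numbered within a library, no barcodes are used here, and no cell was removed; 11 cells had under 50 genes. Doublets were not called.

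Each library's value was log2(mean TPM over cells + 1). The labels name no animals or batches, so a capture cannot be told apart from its stage, and p-values measure the spread between libraries, which may be technical. Two-sided tests by limma 3.58.1 (R 4.3.3; lmFit and eBayes with a trend on level) covered the 14072 genes whose mean reached 1 TPM in 4 or more of the 17 libraries, with Benjamini-Hochberg adjustment at 0.05. Populations were compared in 1 model of the 17 libraries and age, and slopes used a separate age term per population. Age was the embryonic day, and after birth 18.5 plus the labelled days. There were 7 comparisons. Simulated libraries with known changes served to check the model.

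Values are given in full for called members and for the 3 highest of each class by mean TPM; Kif5a, Kif5c, Kif21b and the shorter entries were added after their values were seen, as were the short promoter stretches and family shares. Partner and adaptor genes are named only when called. Python 3.11.15, pandas 2.3.3 and SciPy 1.17.1 made levels, shares and intervals. Of 23078 IDs, 22361 matched GENCODE M21, whose GRCm38 coordinates are given. The kit is not stated to keep strand. Alternatives changed the pseudocount (0.1, 10), the filter, averaging over cells, scaling, cells kept, the age term and libraries.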

Additional observations from a re-analysis of the deposited data

Results flagged for a closer look

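In 87 groups of 4 to 8 libraries, the highest or lowest library was compared with its nearest neighbour by Dixon's criterion at 95%, by which chance alone singles out about 1 in 20 groups. It singled out 6 values. In NBN P3, Kif23 stood at 24.1 TPM where the next library had 0.154 TPM, Kif1a at 11.4 TPM where the nearest had 57.1 TPM, and Kif21a at 7.64 TPM where the nearest had 85.0 TPM. Kif2c stood at 10.2 TPM in NBN E16.5 against 0.0337 TPM in the next NBN library, almost wholly from 1 cell. Kif18b had 0.0128 TPM in NBN E18.5 and was listed at 0 in the other 3 NBN libraries. Kifc3 had 0.741 TPM in NSC P0 against 0.118 TPM in the next NSC library.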

How the results depend on the processing

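No paired analysis was possible because the numbers in the labels name cells within a library and each library gives 1 value. Stages shared by populations were instead compared with stage as a factor, where NBN and NSC kept a count of 4 with 2 higher (Dync1i1, Kif5c) and 2 lower (Kif22, Kif23), so that Kif2c was lost and Kif5c gained. The count of called members changed as follows, and the cause was not tested. Between BP and NSC it was 0 and became 1 with a pseudocount of 10 or stage as a factor, and 7 without NSC cells of neuron profile. Between NBN and NSC it was 4 and became 3 with a pseudocount of 0.1 or 10, 5 without NSC cells of neuron profile, 2 without the filter, 1 with the mean of log2 over cells and 2 without cells with markers of another type. For NSC slopes it was 0 and became 4 with the mean of log2 over cells. For NBN slopes it was 0 and became 1 with a pseudocount of 0.1, 2 without the filter, 12 with the mean of log2 over cells and 8 without cells with markers of another type. The last setting dropped 36 of the 40 NBN P3 cells. Without both NSC E15.5 and NBN P3, a setting chosen after seeing the data, the counts were 2 between BP and NSC, 1 between NBN and BP and 11 between NBN and NSC. Leaving out each library in turn gave 0 to 2, 0 to 0 and 1 to 6 called members in these 3 comparisons, and 0 to 4 for NBN slopes. Over all genes, leaving out 1 library gave 22 to 170 calls between BP and NSC (67 with all libraries), 2 to 15 between NBN and BP (2) and 63 to 606 between NBN and NSC (233), and 85 to 286 for NSC slopes (192) and 1 to 869 for NBN slopes (63). The mean of log2 over cells gave 2222 calls for NSC slopes and 2116 for NBN slopes. It also reversed the NBN minus BP difference of Kif22 (0.0611) and Kif23 (0.103) and the NSC slopes of Kif1a (-0.0226) and Kif3a (-0.0540). The NBN slope of Kif21a, -0.829 to 0.0720 over the libraries left out in turn, reversed to 0.0720 without NBN P3, alone or with NSC E15.5, and that of Kif23 to -0.00152 without cells with markers of another type. Class sums ranged, without each library in turn, from 470 to 556 TPM (mitotic, NSC), 114.8 to 197 (BP) and 53.6 to 108 (NBN), from 638 to 754, 1025 to 1082 and 713 to 1004 TPM for transport kinesins, and from 376 to 428, 568.5 to 642 and 508 to 780 TPM for dynein 1. TPM keep no depth, so the number of cells and libraries limits precision.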
